A study of Mus musculus with 6 samples.

Results

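The genes described here encode the machinery that copies chromosomes in S phase and separates them in mitosis. They are a named list of 38 genes, 19 of replication and 19 of mitosis, chosen by function, and all 38 were found among the 18193 genes with a probe set of their own on the array. A probe set is the group of short probes that reads one transcript, and each gene is represented by its brightest probe set among those annotated to it alone. The tissue was the dorsal telencephalon of E14.5 mouse embryos on the C57BL\6 background, all labelled male. On 3 arrays the genotype was wild type (WT), and on 3 it was the conditional knockout (cKO) of the histone methyltransferase ESET, encoded by Setdb1. The deletion used Emx2Cre, a Cre recombinase under control of Emx2, a gene of dorsal forebrain progenitors, so cells of other origin in the dissected piece keep the gene. The labels do not say if Cre was present in WT. Each array is taken as 1 embryo, and p-values measure the spread between these arrays only.

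A cell enters S phase after origins have been licensed, which means that the origin recognition complex, Cdc6 and Cdt1 have loaded the ring-shaped Mcm2 to Mcm7 helicase on DNA. Cdc45 and the GINS complex then turn the helicase on, and polymerases, their clamp and a supply of deoxynucleotides carry the synthesis. Later in the cycle Cdk1, Plk1 and the Aurora kinases drive mitosis, kinetochores attach chromosomes to the spindle, and the anaphase promoting complex ends the division by marking proteins for destruction. In the cortex at this stage the dividing cells are the radial glia of the ventricular zone and the intermediate progenitors, while the neurons they produce have left the cycle. In bulk tissue, fewer cycling cells and less RNA per cell cannot be told apart.

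The arrays carried a common scaling, with median intensities from 91.1 to 119. Setdb1 read 1033 to 1185 on the WT arrays and 500 to 704 on the cKO arrays, a log2 fold change of -0.83 (SE 0.17) that did not pass the threshold in limma (adjusted p = 0.137). Both arrays numbered 3 stood apart. WT 3 had an Xist intensity of 17294 and an Eif2s3y intensity of 22.2, against its male label, and cKO 3 had both signals, at 8811 and 961. Whether these arrays each hold RNA of a single embryo was not tested. Erythroid genes also read higher there. The summed intensity of the 10 measured was 71610 in WT 3 and 76646 in cKO 3, while the remaining arrays had sums of 13357 to 19763.

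The promoters of both classes were searched for chosen motifs, in sequence that the choice of members did not use. The motifs were picked for known roles in the cell cycle, so a difference between the classes could be foreseen. RefSeq (build GRCm38.p6) gave a window of 250 bases before to 50 after the annotated start for 33 of the 38 genes. Mcm4, Gins1, Gins2, Aurkb and Tpx2 had no entry. The motif search covered both strands. The E2F motif, bound by the factors that activate genes at the start of S phase, was taken as TTTCCCGC, TTTCGCGC, TTTGCCGC or TTTGGCGC. The cell cycle homology region (CHR), an element of genes expressed late in the cycle, was taken as TTTGAA, and the third motif was the CCAAT box, CCAAT. An E2F motif was present in 9 of 16 replication promoters (56.2%) and 1 of 17 mitosis promoters (5.88%), against 2.6% of 27025 genes with such a window. The CHR was present in 13 of 17 mitosis promoters (76.5%) and 2 of 16 replication promoters (12.5%), against 20.2% of all. CCAAT was common in both classes, in 81.2% of replication and 88.2% of mitosis promoters, against 41.1% of all. The CHR and CCAAT stood together in 13 of 17 mitosis promoters and in 7.97% of all. These are letter matches, which do not show that a factor binds there, and some E2F matches on opposite strands overlap each other.

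Shown are the promoters of the 2 genes of each class with the smallest p among those holding a motif of that class, in the direction of transcription. Capitals mark E2F motifs in Cdc6 (chr11:98907901-98908200, plus strand) and Mcm3 (chr1:20820263-20820562, minus strand). Other motifs in these windows are left in lower case. In Cenpa (chr5:30666636-30666935, plus strand) and Aurka (chr2:172370521-172370820, minus strand) they mark CCAAT, its reverse complement ATTGG, and the CHR.
Cdc6: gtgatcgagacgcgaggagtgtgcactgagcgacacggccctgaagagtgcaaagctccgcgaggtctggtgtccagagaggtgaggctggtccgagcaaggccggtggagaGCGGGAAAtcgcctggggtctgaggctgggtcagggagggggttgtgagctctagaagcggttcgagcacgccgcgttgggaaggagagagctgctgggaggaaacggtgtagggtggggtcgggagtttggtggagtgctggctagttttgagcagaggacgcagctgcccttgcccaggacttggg
Mcm3: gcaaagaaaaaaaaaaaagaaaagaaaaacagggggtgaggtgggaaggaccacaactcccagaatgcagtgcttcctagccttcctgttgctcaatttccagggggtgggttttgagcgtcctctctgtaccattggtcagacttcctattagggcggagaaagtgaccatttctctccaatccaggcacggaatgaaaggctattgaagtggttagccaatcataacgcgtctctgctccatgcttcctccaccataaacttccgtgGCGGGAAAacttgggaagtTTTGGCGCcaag
Cenpa: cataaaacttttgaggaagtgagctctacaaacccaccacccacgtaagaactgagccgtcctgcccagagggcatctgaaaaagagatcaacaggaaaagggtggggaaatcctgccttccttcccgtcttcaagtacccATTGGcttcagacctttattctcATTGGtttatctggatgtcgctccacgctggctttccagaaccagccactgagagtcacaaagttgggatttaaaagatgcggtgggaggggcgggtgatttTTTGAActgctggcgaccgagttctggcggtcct
Aurka: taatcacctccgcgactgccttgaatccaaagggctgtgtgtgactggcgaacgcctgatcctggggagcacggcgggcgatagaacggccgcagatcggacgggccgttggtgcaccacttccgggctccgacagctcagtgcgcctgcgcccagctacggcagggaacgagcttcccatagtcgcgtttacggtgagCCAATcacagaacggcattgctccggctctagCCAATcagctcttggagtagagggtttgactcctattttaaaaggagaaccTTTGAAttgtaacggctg
The Cdc6 window held 1 E2F match, starting 138 bases before the annotated start, and that of Mcm3 held a pair, 20 and 39 bases after it. Cenpa and Aurka each held 2 CCAAT matches upstream of a single CHR, which lay 17 and 33 bases after the start.

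The comparison asks whether loss of ESET moved the expression of this machinery. Levels were compared as log2(intensity + 16), with limma fitted over all 18193 genes and p-values adjusted over all of them by the Benjamini-Hochberg method. No member passed the adjusted threshold of 0.05, where 0.627% of all genes did, 0.242% lower and 0.385% higher in cKO (lowest adjusted p = 0.447, for Cenpa). At an unadjusted p under 0.05, 1 member was lower in cKO and 0 were higher, against 4.39% and 5.17% of all genes. The differences were small and mostly of one sign. The log2 fold change (cKO minus WT) was below 0 for 34 of 38 members, where it was below 0 for 48.8% of all genes. Its median was -0.13 over the members, a percent change of -8.83% on this scale, against 0.01 over all genes. All cKO arrays lay below all WT arrays for 6 members, or 15.8%, where 7.64% of all genes had such groups, and 0 members had groups apart in the other direction, where 7.9% did. No test of the members as a list was made, and all were read on the same 6 arrays, so the shared sign is not 38 independent observations. The 95% confidence intervals of the 38 fold changes, all on brightest probe sets, reached no lower than -0.99 and no higher than 0.60. A log2 fold change of 1 or -1 thus lay outside every one of these intervals.

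**Figure D1:**
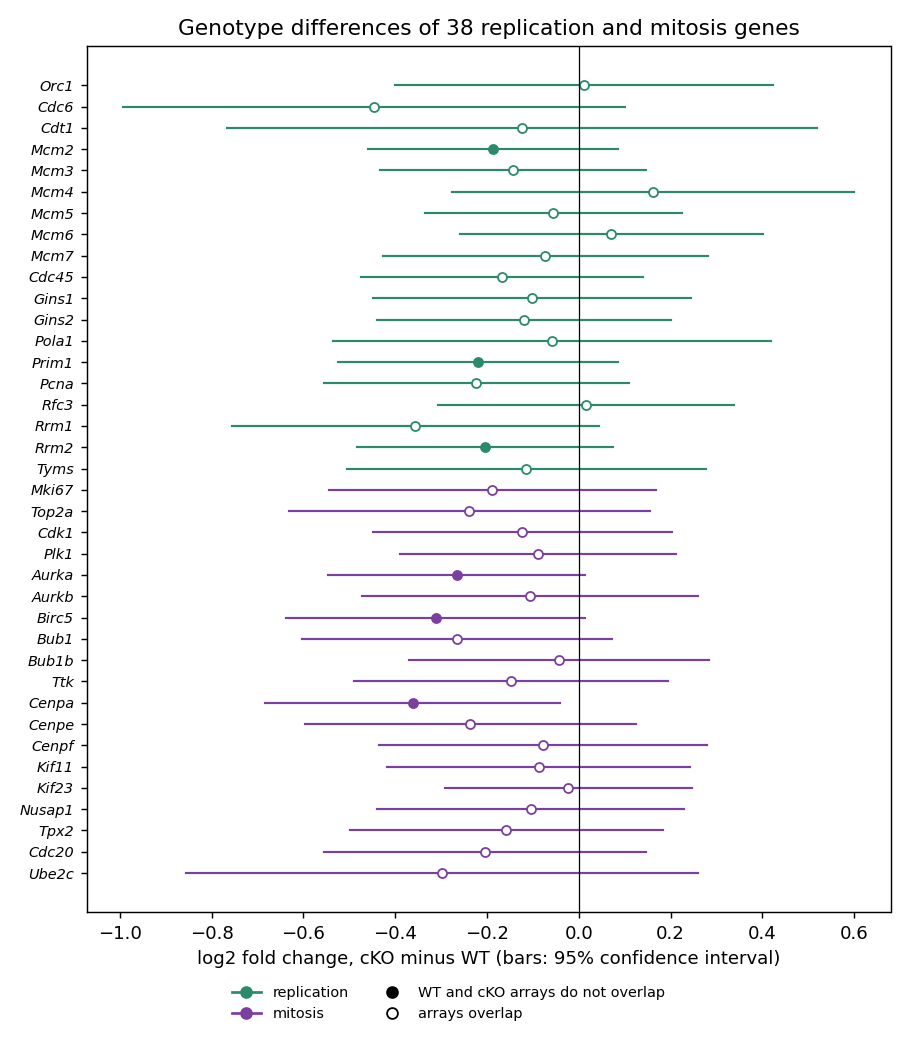
Log2 fold change of each gene, cKO minus WT, with its 95% confidence interval from limma (3 arrays per group), for 19 replication genes above and 19 mitosis genes below. Points lie left of 0 for 34 genes, and 37 of the 38 intervals include 0, the exception being Cenpa.

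Replication and mitosis genes were set side by side. The replication genes had a median log2 fold change of -0.12, with 15 of 19 below 0, and ran from -0.45 to 0.16. The mitosis genes had a median of -0.16, with all 19 below 0, and ran from -0.36 to -0.02. Each class had 3 genes (15.8%) whose groups did not overlap, all lower in cKO, against 7.64% of all genes. The class medians differed by 0.04, and this difference did not keep its sign, since it was -0.055 without WT 3 and -0.0201 with the mean of all probe sets of a gene. For an array's class level, each gene was centred on its mean over the 6 arrays and the median over the class was taken. The replication level was 0.05, 0.08 and 0.09 on the WT arrays and -0.02, -0.13 and -0.11 on the cKO arrays, in order of their numbers. The groups did not overlap, with cKO 1 nearest to WT. The mitosis level was 0.00, 0.04 and 0.18 on the WT arrays and 0.01, -0.19 and -0.06 on the cKO arrays. Here cKO 1 lay within the WT range, and WT 3 lay well above the other WT arrays. The gap between both levels ran from -0.09 to 0.05 in WT and from -0.05 to 0.06 in cKO, and these ranges overlapped.

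**Figure D2:**
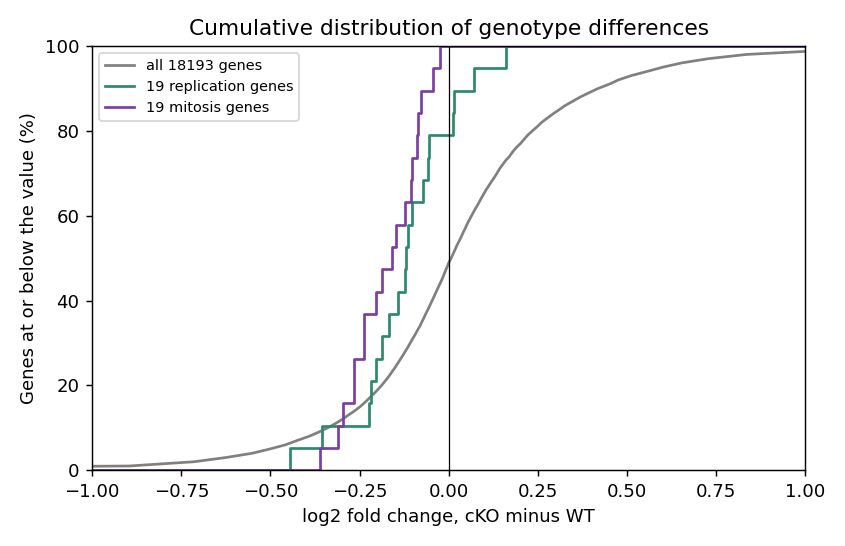
Share of genes (vertical axis, percent) with a log2 fold change at or below the value on the horizontal axis, for 19 replication genes, 19 mitosis genes and all 18193 genes. Both classes rise steeply to the left of 0, with medians of -0.12 and -0.16, and the curve of all genes crosses near 0.

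The size of these medians depended on single arrays. Without cKO 2, which read lowest of all arrays for 17 of the 38 genes, the replication median was -0.0795 and the mitosis median -0.0999. Without WT 3, highest for 21 genes, the mitosis median was -0.105 and the replication median -0.159. Leaving out both arrays numbered 3 gave -0.127 for replication and -0.138 for mitosis.

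**Figure D3:**
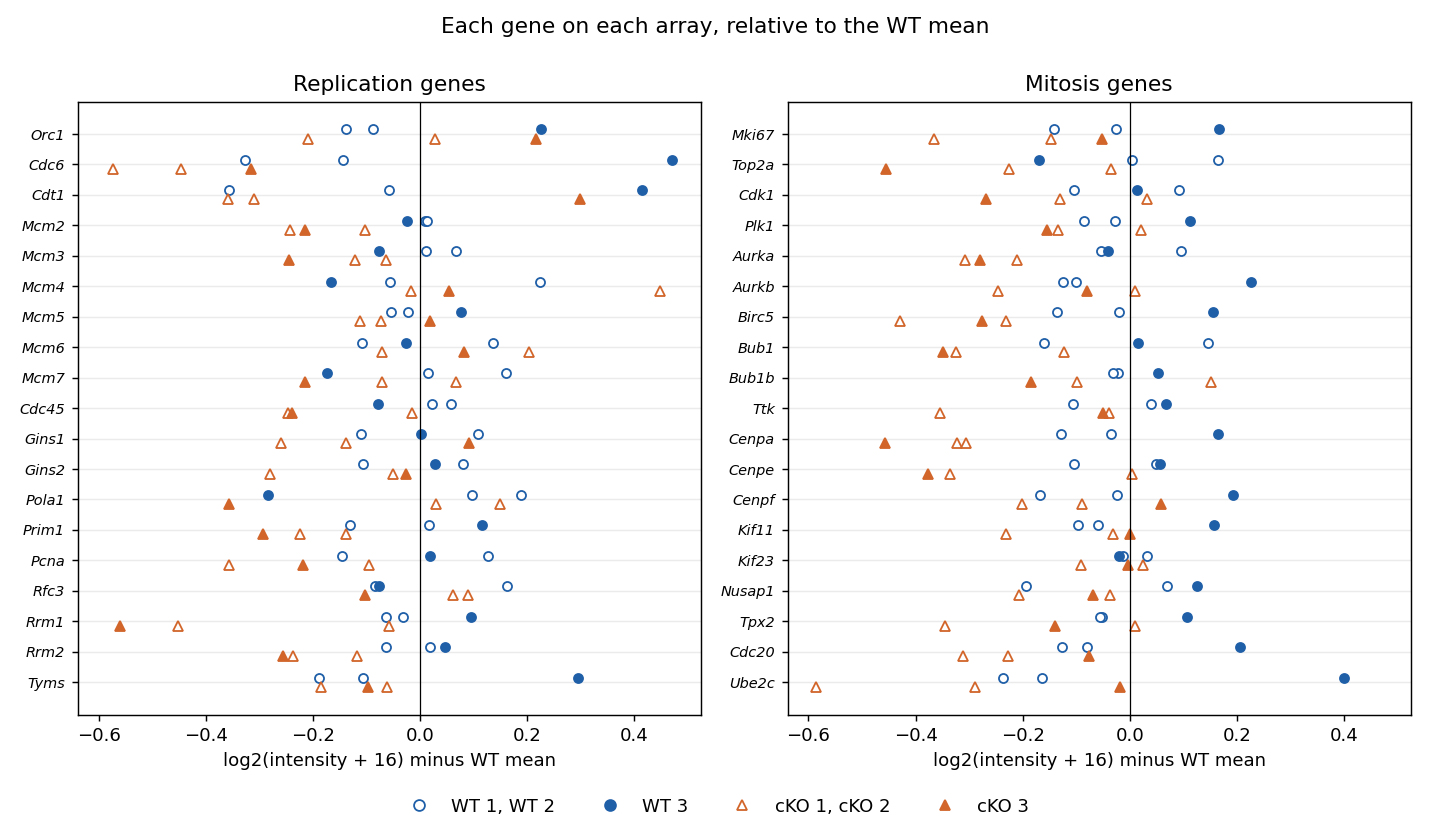
Log2(intensity + 16) of each gene on each array minus its WT mean, with replication genes left and mitosis genes right, circles for WT, triangles for cKO and filled symbols for the arrays numbered 3. The cKO symbols lie mostly left of the line at the WT mean, and WT and cKO overlap for 32 of the 38 genes.

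Origin licensing was the role with the smallest shift, with a median of -0.07 over 9 genes, 3 of them above 0. Cdc6, the loader of the Mcm helicase, read 357, 408 and 633 on WT 1 to WT 3 and 328, 298 and 360 on cKO 1 to cKO 3. One cKO array lay just above the lowest WT array, and WT 3 was far above the rest. Its log2 fold change of -0.45 (SE 0.23, adjusted p = 0.633 in limma) was the lowest of all 38 genes. It was -0.21 without WT 3 and -0.275 without both arrays numbered 3, and other genes then read lower. Cdt1, the other loading factor, read 1447, 1173 and 2014 in WT and 1172, 1213 and 1857 in cKO, a fold change of -0.12. Both arrays numbered 3 were high, and without WT 3 the value turned to 0.0841. Orc1, the largest subunit of the origin recognition complex, had a fold change of 0.01, with intensities between 99.3 and 140.

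The 6 subunits of the Mcm helicase did not share a sign. Mcm2 read 1382, 1386 and 1350 in WT and 1278, 1157 and 1181 in cKO. Its groups did not overlap, and the fold change was -0.19 (SE 0.11). Mcm3, at 2041, 1963 and 1847 against 1790, 1864 and 1642, had a fold change of -0.14 and groups that overlapped. Mcm4 had the highest fold change of all members, 0.16 (SE 0.18), from 2548, 2094 and 1940 in WT and 2153, 2978 and 2262 in cKO, where cKO 2 alone lay above every WT array. Without cKO 2 the fold change of Mcm4 was 0.018, and without WT 3 it was 0.0779. The values of Mcm5 were 2958, 2893 and 3167 in WT and 2777, 2856 and 3042 in cKO (-0.06). For Mcm6 they were 3249, 2741 and 2901 in WT and 2813, 3406 and 3129 in cKO (0.07). Mcm7 read 11463, 12682 and 10067 in WT and 11895, 10805 and 9784 in cKO (-0.07). On these brightest probe sets, all but Mcm2 had overlapping groups. Dimmer probe sets of Mcm3 and Mcm5 differed from them. One of Mcm3 read 722, 772 and 807 in WT and 659, 525 and 590 in cKO, with groups apart at -0.37, and another had groups apart at -0.28. One of Mcm5 read 1036, 1173 and 1137 in WT and 931, 941 and 869 in cKO, with groups apart at -0.28, and a much dimmer one was at -0.57, also with groups apart. None passed over all probe sets in limma (adjusted p from 0.515 to 0.753). The 6 proteins form one complex, and the 95% intervals on the brightest probe sets ran from at lowest -0.46 to at highest 0.60.

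The factors that activate the helicase lay a little lower in cKO and overlapped WT. Cdc45 was at -0.17, the GINS subunits Gins1 and Gins2 at -0.10 and -0.12, with intensities between 379 and 1260. Among genes of DNA synthesis, Prim1, the primase subunit that starts each strand, read 2515, 2789 and 2987 in WT and 2503, 2358 and 2246 in cKO. These groups met without overlapping, at WT 1 and cKO 1, and the fold change was -0.22 (SE 0.13), or -0.124 without both arrays numbered 3. Pcna, the sliding clamp and a common marker of S phase, read 12971, 15668 and 14548 in WT and 13429, 11210 and 12334 in cKO. One cKO array lay within the WT range, and the fold change was -0.22 (SE 0.14, adjusted p = 0.728 in limma). Pola1, the catalytic subunit of the polymerase that extends primers, was at -0.06.

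Rfc3, a subunit of the clamp loader, gave different answers on its probe sets. The brightest, at a WT mean of 1261 and a cKO mean of 1273, had a fold change of 0.02. The other probe set was nearly as bright by mean log2 value over all arrays, and brighter in WT. It read 1767, 1537 and 1447 in WT and 948, 1050 and 898 in cKO. Its groups were far apart, with a fold change of -0.70 (SE 0.15). This was the lowest among all 90 probe sets of the members, and it did not pass over all 45037 probe sets (adjusted p = 0.227 in limma). The files do not say which part of the transcript each probe set reads.

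Genes of nucleotide supply had the lowest median of the replication roles, -0.20. Rrm1, the large subunit of ribonucleotide reductase, which makes deoxynucleotides, read 2915, 2978 and 3258 in WT and 2925, 2225 and 2062 in cKO. The array cKO 1 was level with WT and the other cKO arrays were lower, giving a fold change of -0.36 (SE 0.17, adjusted p = 0.586), or -0.207 without both arrays numbered 3. Rrm2, the small subunit, whose amount follows S phase, read 6871, 6488 and 7004 in WT and 6252, 5754 and 5676 in cKO. Its groups did not overlap, and the fold change was -0.20 (SE 0.12). Tyms, thymidylate synthase, was at -0.11, and at 0.0245 without the arrays numbered 3. Its brightest probe set read only 137 to 198. The dimmer probe sets of Tyms were at 0.001, 0.72 and 0.76, with groups apart for the one at 0.72, so its direction was not settled.

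Markers of dividing cells were slightly lower in cKO with overlapping groups. Mki67, which encodes the Ki-67 antigen of cycling cells, read 4589, 4231 and 5239 in WT and 4213, 3620 and 4501 in cKO, a fold change of -0.19 (SE 0.15). Top2a, the topoisomerase that untangles chromosomes, read 5897, 6591 and 5227 in WT and 5736, 5025 and 4281 in cKO, a fold change of -0.24 (SE 0.16). In each case cKO 1 or cKO 3 reached into the WT range. Mki67 was at -0.105 without WT 3 and -0.0999 without cKO 2, and Top2a at -0.157 without WT 2 and -0.13 without cKO 3.

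Kinases of mitosis and the chromosomal passenger complex had a median of -0.12 over 5 genes. Aurka, the Aurora kinase of spindle poles, read 1013, 1127 and 1023 in WT and 908, 847 and 864 in cKO. Its groups did not overlap, and its fold change was -0.27 (SE 0.12, adjusted p = 0.552). Birc5, the passenger protein survivin, read 1809, 1961 and 2215 in WT and 1691, 1473 and 1640 in cKO. These groups were also apart, at -0.31 (SE 0.13, adjusted p = 0.546). Its partner Aurkb was at -0.11, the master mitotic kinase Cdk1 at -0.12 and the polo-like kinase Plk1 at -0.09, each with overlapping groups.

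At the kinetochore, Cenpa had the lowest fold change of the mitosis genes. It encodes the histone H3 variant that marks centromeres. It read 2396, 2558 and 2942 in WT and 2094, 2118 and 1904 in cKO, and all cKO arrays lay below all WT arrays. The fold change was -0.36 (SE 0.13, 95% interval -0.68 to -0.04), with an unadjusted p of 0.0324 and an adjusted p of 0.447 in limma. WT 3 was its highest array. Its fold change was -0.28 without WT 3 and -0.232 without both arrays numbered 3, and in both fits 0 members had an unadjusted p under 0.05. Bub1, a kinase of the spindle checkpoint, read 1403, 1739 and 1589 in WT and 1442, 1252 and 1230 in cKO, with cKO 1 above WT 1 and a fold change of -0.27 (SE 0.14). The other members of this role had overlapping groups, with the kinetochore motor Cenpe at -0.24, the checkpoint kinase Ttk at -0.15, Cenpf at -0.08 and the checkpoint protein Bub1b at -0.04. A second probe set of Bub1b, of similar brightness, read 1138, 1065 and 926 in WT and 893, 765 and 692 in cKO. These groups did not overlap, and the fold change was -0.41. In WT this probe set was the brighter one (mean 1043 against 918), and in cKO the dimmer (783 against 894).

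Genes of the spindle and its midzone had the median closest to 0 among the mitosis roles, -0.10. Kif23, a motor of the central spindle, read 966, 997 and 961 in WT and 914, 991 and 973 in cKO, and at -0.02 (SE 0.11, 95% interval -0.29 to 0.25) had the highest fold change among mitosis genes. The spindle motor Kif11 was at -0.09, the microtubule protein Nusap1 at -0.10 and Tpx2, the activator of Aurka, at -0.16. Of the genes of the anaphase promoting complex, its activator Cdc20 was at -0.20 and its ubiquitin-conjugating enzyme Ube2c at -0.30. Ube2c read 4599, 4377 and 6809 in WT and 4219, 3430 and 5090 in cKO, so the spread between arrays of one genotype exceeded the difference between genotypes (SE 0.23). Without WT 3 the fold change of Ube2c was -0.0975 and that of Cdc20 -0.102, and without cKO 2 Ube2c was at -0.153.

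The members varied between arrays of one genotype in a pattern that both groups shared for most genes but not all. For each gene, WT 3 was set against the mean of WT 1 and WT 2, and cKO 3 against the mean of cKO 1 and cKO 2. Both deviations were above 0 for 18 genes and both below 0 for 9. The signs differed for the rest, with only WT 3 above 0 for 9 genes and only cKO 3 for 2. Over the 38 genes they had a Pearson correlation of 0.727, a description of these arrays across genes that are not independent. Over all 18193 genes the correlation was 0.37, so a shared deviation was not particular to the members. Cdt1 was higher by 0.62 on WT 3 and 0.63 on cKO 3, Ube2c by 0.60 and 0.42, and Orc1 by 0.34 and 0.31. Cdc6 was higher by 0.71 on WT 3 and 0.19 on cKO 3, and Cdc20 by 0.31 and 0.19. Pola1 was at -0.43 and -0.45, Top2a at -0.25 and -0.33, and Mcm7 at -0.26 and -0.21. Of the genes with differing signs, Cenpa was at 0.25 and -0.14 and Rrm1 at 0.14 and -0.30. These genes were chosen after their values were seen. Within single genes the probe sets could differ in this respect. On the arrays numbered 3 a dimmer probe set of Cenpf was at 556 in WT and 429 in cKO, with 110 to 165 elsewhere, while its brightest read between 1546 and 2036 on all 6. The erythroid list moved with these arrays, by 1.72 on WT 3 and 1.71 on cKO 3 as a median over 10 genes, and its part in the members' deviations was not tested.

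**Figure D4:**
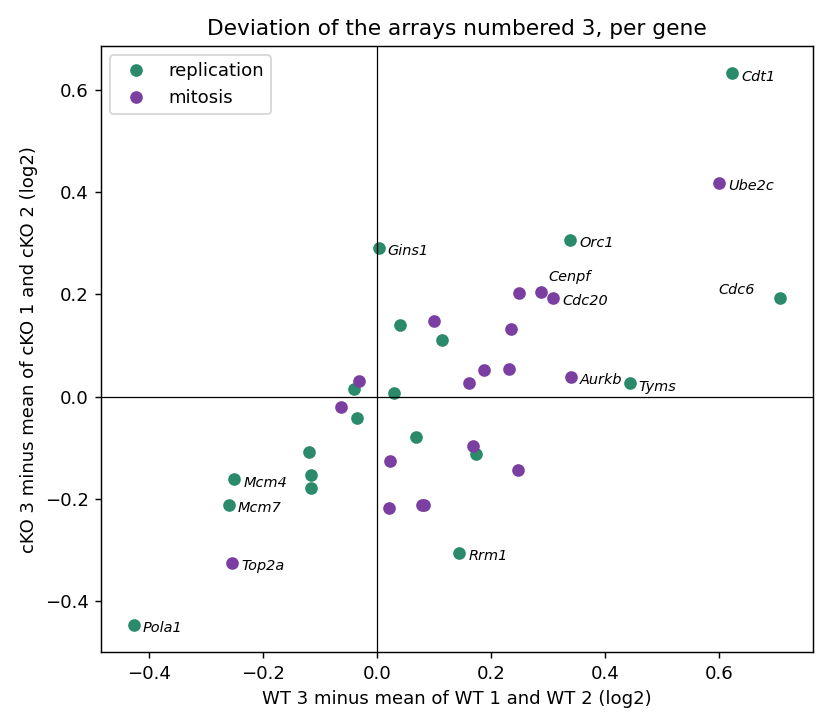
Deviation of WT 3 from the mean of WT 1 and WT 2 (horizontal axis, log2) and of cKO 3 from the mean of cKO 1 and cKO 2 (vertical axis, log2), with 1 point per gene coloured by class. Most points lie in the upper right (18 genes) or lower left (9 genes), with Cdt1 and Pola1 at the ends.

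Across all 90 probe sets of the 38 genes, 68 had a fold change below 0, 46.9% of all probe sets did, and 0 passed the adjusted threshold, where 0.275% of all did, 0.0511% lower and 0.224% higher. With no adjustment, 5 had p under 0.05 and lower values in cKO and 1 had higher values, against 3.33% and 4.57% of all. Groups did not overlap for 16 probe sets that were lower and 2 that were higher, against 6.07% and 7.47%. Of the 52 further probe sets, 17 had the opposite sign to the gene's brightest one, among 14 genes. Some of these were dim, such as a Tyms probe set with a WT mean of 8.52.

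Other genes of the same machinery gave a similar picture. Of 38 further replication genes 36 were measured, with a median fold change of -0.07 and 30 below 0. In limma 0 passed the adjusted threshold, where 0.627% of all genes did. At an unadjusted p under 0.05 there was 1 (2.78%), on the lower side, against 4.39% of all genes. Groups were apart for 6 (16.7%), all lower in cKO, against 7.64% of all genes. The lowest p was that of Pola2, the second subunit of the primer-extending polymerase, at 524, 518 and 540 in WT and 453, 345 and 394 in cKO (-0.40). Next came the flap endonuclease gene Fen1 at -0.31, Orc6 at -0.25 and the primase gene Prim2 at -0.26. All 40 further mitosis genes were measured, with a median of -0.12 and 35 below 0. Here too 0 passed in limma, and 3 (7.5%) had an unadjusted p under 0.05, each on the lower side, against 4.39% of all genes. Groups were apart for 9 (22.5%), all lower, against 7.64% of all genes. Cdc25c, the phosphatase that activates Cdk1, read 435, 460 and 437 in WT and 308, 257 and 230 in cKO. Its groups were far apart, and the fold change was -0.72 (SE 0.14, adjusted p = 0.124). The kinetochore genes Spc24 and Cenpn were at -0.35 and -0.33. Pttg1, which encodes securin, was at -0.76 with overlapping groups, since cKO 1 at 3438 lay above WT 1 at 3331 and the other cKO arrays were at 1530 and 1838.

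Regulators of the cycle showed 1 gene well away from the rest. Of 22 measured, 17 were below 0, the median was -0.13, and 0 passed the adjusted threshold in limma, with 1 gene at an unadjusted p under 0.05. This was Cdkn1c, higher in cKO, as were 5.17% of all genes at that p. It is the imprinted gene of the cyclin-dependent kinase inhibitor p57, and it read 1620, 1671 and 3370 in WT and 5598, 3918 and 7127 in cKO. Every cKO array was above every WT array, with a fold change of 1.36 (SE 0.35, adjusted p = 0.235). It was also high on both arrays numbered 3 within its group. Foxm1, a transcription factor of mitosis genes, was at -0.24 with groups apart, Myc at -0.35 and Lin9 at 0.23. Groups were apart for 1 regulator of the 22 in each direction (4.55%), against 7.9% of all genes higher and 7.64% lower in cKO. As a list the regulators thus had no more genes with groups apart than all genes did.

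Markers of the cells that divide, and of those that do not, were read beside these values. Summed intensities mostly follow the brightest genes of a list, such as Fabp7 and Vim in radial glia and Neurog2 in intermediate progenitors. A sum thus says little about the dimmer genes, such as Neurog1. The radial glia list had a median of 0.04 over 10 genes, with summed intensities of 48198 to 56193 in WT and 49342 to 54280 in cKO, and Nes at 0.30, Hes5 at 0.61, Slc1a3 at -0.29 and Sox2 at 0.17. Intermediate progenitor genes parted, with a median of 0.04 over 6, summed intensities of 19222 to 20670 in WT and 18365 to 21726 in cKO, Neurog1 at -1.32, Eomes at -0.63, Gadd45g at 0.29 and Insm1 at 0.44. Young neuron genes had a median of -0.08 over 8 and sums of 71272 to 85893 in WT and 75282 to 85477 in cKO, with Neurod1 at 0.34, Dcx at -0.16, Tbr1 at -0.21 and Neurod2 at -0.19. In each of these lists limma called 0 genes after adjustment. At an unadjusted p under 0.05 there were 2 genes, Neurog1 and Eomes, both lower in cKO, against 4.39% of all genes.

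Cells that do not belong to the cortical lineage also contribute RNA. The endothelial list had a median of -0.25 over 8 genes, with summed intensities of 1414 to 1580 in WT and 1133 to 1298 in cKO that did not overlap. In limma 0 passed after adjustment and 3 (37.5%) were lower at an unadjusted p under 0.05, against 4.39% of all genes. Tie1 was at -0.85, Emcn at -0.46, Cldn5 at -0.38 and Kdr at -0.25, and 1 gene was above 0, Pecam1 at 0.06. The Tie1 intensities were low, from 12.5 to 54.5. Cldn5 was the brightest gene of the list, at 341 to 537, and weighed most in the sums. Endothelial cells divide in the embryo, and their part in the members' values was not tested. Sums of the 8 meninges and mesenchyme genes were 453 to 663 in WT and 298 to 435 on cKO 1 and cKO 2, with cKO 3 at 2160. Those of the 7 muscle genes were 302 to 539 in WT and 278 and 178 on cKO 1 and cKO 2, with cKO 3 at 1048. The 7 microglia genes had sums of 1305 to 1523 in WT and 1038 to 1456 in cKO, and the 9 ventral telencephalon genes 3402 to 4747 and 4154 to 4564. Of the lists of ventral telencephalon, mesenchyme, muscle, microglia and blood, 0 genes passed the adjusted threshold in limma. At an unadjusted p under 0.05 there were 3 genes, all higher in cKO, against 5.17% of all genes in that direction. Of these, 2 were among the 9 ventral genes and 1 among the 10 blood genes. They were Gad1, a gene of inhibitory neurons, at 0.48, the ventral regulator Nkx2-1 at 1.01 and the globin gene Hba-a1 at 0.99. Their intensities ran from 958 to 1724 for Gad1 and from 5.94 to 63.2 for Nkx2-1. For Hba-a1 they ran from 3.23 to 48.5. The ventral list did not move as one. Its median was 0.19, with 7 genes above 0 and 2 below, Dlx1 at -0.26 and Dlx6 at -0.48, while Dlx2 and Dlx5 were at 0.02 and 0.05. None of the markers was at 0 on any array, the lowest being a mesenchyme marker at 1.34. The part of these cells in the members' values was not tested.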

How the data were processed

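The authors deposited 1 linear intensity per probe set and array, made with the Affymetrix Expression Console per the submitters' processing notes. Which version and summary method they used is not stated in the labels. The mean after trimming 2% at each end was 497.2 to 497.7 on every array, so scaling was common, and array medians differed by 0.33 (log2). Intensities of 45037 probe sets were taken to log2(intensity + 16), which shrinks fold changes of dim genes, with no further normalization. The platform annotation gave 1 gene to 34945 probe sets, several to 932 and none to 9160. Each gene was represented by its brightest probe set given to it alone, by mean log2 value over all arrays. A probe set lower in cKO could thus lose its place, as for Rfc3 and Bub1b. limma 3.58.1 in R 4.3.3 (lmFit, eBayes, genotype only) was fitted on all 18193 genes, and separately on all probe sets, adjusting p by Benjamini-Hochberg and calling genes under 0.05. The fit was tested on simulated arrays with planted changes larger than any seen in the members. That test does not cover shifts of the members' size. SE is the moderated standard error. The number of arrays, 3 per group, limits precision. The members, lists and motifs were chosen with earlier results of these data known. Array values are given for the 4 members of each class with the smallest p, those with extreme fold changes, Mcm2 to Mcm7, Pcna, Mki67 and Top2a. Cdt1, Ube2c and the further probe sets shown were chosen after their values were seen. Other lists are represented by up to 4 genes with the smallest p. Alternatives covered normalization, pseudocounts of 1 and 64, a filter on dim genes, the choice of probe set, eBayes settings, blocks and left-out arrays.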

Additional observations from a re-analysis of the deposited data

How the results depend on the processing

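In all 17 alternatives 0 of the members tested passed, which were 36 with the filter on dim genes, 37 without _x_at and _s_at probe sets and 38 otherwise (lowest adjusted p over members from 0.237 to 0.657 in limma), with 31 to 36 below 0 and, at an unadjusted p under 0.05, 0 to 4 lower and at most 1 higher. Over all member probe sets 0 passed in 15 alternatives, but the lowest adjusted p came near the threshold in some. In limma it was 0.0512 with the trend and robust eBayes settings, 0.0703 with the filter and 0.0876 with a pseudocount of 64. The main fit gave 0.227. In these settings 11, 8 and 12 member probe sets were lower at an unadjusted p under 0.05, against 5 in the main fit. Of all probe sets 257, 252 and 205 then passed the adjusted threshold, against 124. The replication median stayed between -0.169 and -0.0795 and the mitosis median between -0.208 and -0.0999, and centring moved the median of all genes to -0.0429. The difference of the class medians ran from -0.055 to 0.0593 when arrays were left out singly, and was -0.0201 with the mean of all probe sets of a gene. Over all genes, the deviations of same-numbered arrays had correlations of 0.07, 0.17 and 0.37, in order of number. Arrays numbered 2 and 3 were each other's best match across genotypes, and those numbered 1 were not. Whether the numbers pair the arrays was not settled, and the main fit did not use them. With the replicate number as a block 0 members passed and 17 of all genes did, against 114 without it. Fold changes of single members changed sign in 27 of 643 values, over 13 genes, none of them called. Quantile normalization gave -0.0358 for Orc1, and centring gave -0.0388 for Orc1 and -0.034 for Rfc3. The mean of all probe sets gave -0.0295 for Mcm6, 0.0661 for Cdc45, -0.344 for Rfc3, 0.342 for Tyms, 0.0561 for Kif23 and 0.00931 for Tpx2. Without both arrays numbered 3, Tyms was at 0.0245 and Bub1b at 0.0534. In the fits that left out 1 array, ranges that crossed 0 were -0.0913 to 0.124 for Orc1, -0.334 to 0.0841 for Cdt1, -0.159 to 0.00682 for Mcm7, -0.201 to 0.0894 for Pola1, -0.0269 to 0.097 for Rfc3, -0.208 to 0.0331 for Tyms, -0.168 to 0.00755 for Aurkb, -0.141 to 0.0269 for Bub1b, -0.162 to 0.0181 for Cenpf and -0.0469 to 0.0104 for Kif23. The cause was not tested. Signals over background could not be judged, since no detection calls were used.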
